A study of Mus musculus with 15 samples.

Results

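The genes described here encode the receptors and transporters through which GABA and glycine act: subunits of the GABA-A, GABA-rho and GABA-B receptors, glycine receptor subunits with their anchor gephyrin, membrane transporters of GABA and glycine, and the chloride cotransporters Slc12a5 and Slc12a2. Members were taken by symbol from a list of 27 genes, whatever their signal. Of these, 26 had a transcript cluster (the array's unit for a gene) annotated to that gene alone, out of 22180 genes measured, and each had exactly 1 such row. Slc6a9, a glycine transporter, stood only on a row shared with Ccdc24 and was not used. Gabra6 and Gabrr1 fell under the filter on low signals, so that 24 members were among the 16635 genes tested.

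RNA came from sorted cells of the embryonic mouse thalamus, hybridised to Affymetrix arrays, with 3 biological replicates in each of 5 groups. The E18.5 groups were double-labelled, red and green, and the E14.5 groups red and green. Every embryo was Gbx2CreER-IRES-EGFP/+ and R26lsl-tdTomato/+ on a c57/BL6 background, so that EGFP and the inducible Cre both came from the Gbx2 locus and all groups carried 1 altered Gbx2 allele. Tamoxifen (4 mg) went to the pregnant female at E9 before collection at E18.5, and at E9.5 before collection at E14.5. Red marks cells whose ancestors had active Cre after tamoxifen, and green marks cells with EGFP at the time of sorting. The sorting gates and the number of embryos per replicate were not given in the sources used here.

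GABA-A receptors are chloride channels built from alpha, beta and gamma subunits, with delta, epsilon or theta in some receptors, and the alpha subunit sets much of their kinetics and drug response. GABA-B receptors are G-protein-coupled pairs in which Gabbr1 binds GABA and Gabbr2 couples to the G protein. Glycine receptors are chloride channels of alpha subunits with or without Glrb, which binds gephyrin. In immature neurons the importer Slc12a2 keeps chloride high and GABA can depolarise the cell, and the exporter Slc12a5 lowers chloride as neurons mature. In the adult thalamus, relay neurons are inhibited by GABA neurons of the reticular nucleus, while glycine input comes mainly from the brainstem.

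All levels below are log2 signals on the authors' deposited scale unless quantile-normalised values are named. A difference is called where limma's moderated test gave an adjusted p under 0.05 over all 16635 genes. Slc17a6 and Tcf7l2, which mark thalamic relay neurons, stood at 9.38 to 10.69 and at 11.30 to 12.05 over the 15 arrays. They are 2 of 12 thalamic markers listed, and the list was not even between the E18.5 populations. Against E18.5 green cells, 2 of the 12 were called lower and 1 higher in red cells. Of all genes tested, 0.349% were called lower and 0.265% higher. The list median was -0.43, beside -0.01 over all genes. The part of these markers in the E18.5 results was not tested. Gbx2 was lowest in E18.5 red cells (5.45 to 7.16). EGFP came from the Gbx2 locus, and the part of the sort in this level was not tested. E18.5 red replicate 1 and E18.5 double-labelled replicate 1 stood apart, with an SD over all values of 1.34 and 1.31, where the other E18.5 arrays had 1.44 to 1.51. These 2 are referred to as narrow-range arrays. For some results that rest on them the value without them is given, and for others the values by array.

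At E14.5, 5 members passed as higher in red cells and none as lower. The sequences upstream of these 5 genes, picked after their values were seen, are shown because the genes moved together there. Gabrg1 is set beside them because it had the highest E18.5 over E14.5 difference among the members in green cells while showing no red-green call at E14.5. Its deposited E14.5 means, 5.21 in red and 5.04 in green cells, lay near the cutoff of 5.07 of the filter on low signals. Each sequence is the 250 bases before a RefSeq start site on GRCm38.p6, read 5′ to 3′ on the gene's own strand, with every CG pair in capitals. The windows lie at chr4:46991715-46991964 (minus strand) for Gabbr2, chr5:71095850-71096099 (minus) for Gabra2, chr2:164960596-164960845 (plus) for Slc12a5, chr7:57387216-57387465 (minus) for Gabrg3, chr17:37045716-37045965 (plus) for Gabbr1 and chr5:70842618-70842867 (minus) for Gabrg1. Slc12a5 has another start in the table, and its more upstream window is printed.
Gabbr2: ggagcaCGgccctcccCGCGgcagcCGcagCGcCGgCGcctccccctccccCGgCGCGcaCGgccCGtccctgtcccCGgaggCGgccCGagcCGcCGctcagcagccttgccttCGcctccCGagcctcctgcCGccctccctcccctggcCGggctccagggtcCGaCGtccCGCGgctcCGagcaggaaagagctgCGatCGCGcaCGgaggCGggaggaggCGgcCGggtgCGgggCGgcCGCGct
Gabra2: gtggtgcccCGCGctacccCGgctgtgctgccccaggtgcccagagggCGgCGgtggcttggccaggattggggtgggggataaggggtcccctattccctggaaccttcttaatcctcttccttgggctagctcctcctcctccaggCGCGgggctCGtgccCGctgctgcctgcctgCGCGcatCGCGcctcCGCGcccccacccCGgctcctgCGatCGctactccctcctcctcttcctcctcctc
Slc12a5: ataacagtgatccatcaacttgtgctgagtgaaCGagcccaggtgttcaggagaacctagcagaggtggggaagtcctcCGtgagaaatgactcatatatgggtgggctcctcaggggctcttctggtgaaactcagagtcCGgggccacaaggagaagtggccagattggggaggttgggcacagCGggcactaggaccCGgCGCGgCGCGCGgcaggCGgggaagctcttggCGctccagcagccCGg
Gabrg3: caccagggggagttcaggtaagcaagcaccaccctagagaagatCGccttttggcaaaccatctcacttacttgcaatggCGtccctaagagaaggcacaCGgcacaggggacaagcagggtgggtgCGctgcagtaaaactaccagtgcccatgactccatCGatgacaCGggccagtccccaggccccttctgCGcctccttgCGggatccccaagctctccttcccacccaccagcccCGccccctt
Gabbr1: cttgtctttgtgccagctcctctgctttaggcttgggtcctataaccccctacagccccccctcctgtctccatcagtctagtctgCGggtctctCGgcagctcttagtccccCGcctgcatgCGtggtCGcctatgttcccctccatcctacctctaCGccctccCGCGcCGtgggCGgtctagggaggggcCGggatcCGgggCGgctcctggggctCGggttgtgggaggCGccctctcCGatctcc
Gabrg1: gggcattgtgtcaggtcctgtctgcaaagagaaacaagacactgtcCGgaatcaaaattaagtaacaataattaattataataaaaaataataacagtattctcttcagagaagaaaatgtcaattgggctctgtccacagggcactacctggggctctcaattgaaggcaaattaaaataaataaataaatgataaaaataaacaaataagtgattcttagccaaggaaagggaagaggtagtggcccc

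The Gabbr2 window held 37 CG pairs and was 80.8% G or C. The windows of Gabra2, Gabbr1 and Slc12a5 held 18, 16 and 13 CG pairs, and that of Gabrg3 held 9. Over all 32851 windows of the same length the median was 6 CG pairs and 52.4% G or C. The Gabrg1 window stood below that median, with 1 CG pair and 35.6% G or C. Gabrg1 does not stand for the other members without a call at E14.5. Their windows ran from 0 CG pairs for Gabra3 to 34 for Gphn, with 25 for Slc6a11 and 21 for Gabre. Whether CG pairs go with the calls was not tested. On both strands 4 motifs were searched: the TATA box (TATAAA, in 12.4% of all windows), an EGR site (GCGNGGGCG, in 4.7%), the cAMP response element (TGACGTCA, in 1.55%) and the left part of the RE1 silencer site (TTCAGCACC, in 0.301%). None occurred in the 6 windows printed. Among the 32 windows of the 24 members with one, 4 held the TATA letters and 2 the EGR letters. These matches describe the letters alone.

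Red and green cells were first compared at E14.5. Of the 24 members tested, 5 were higher in red cells, which is 20.8%, where 1.89% of all genes tested were called higher and 3.52% were called in either direction. Without the narrow-range arrays 7 members passed, all higher, where 8.62% of all genes were called. Both GABA-B subunits, the GABA-A subunits Gabra2 and Gabrg3 and the chloride exporter Slc12a5 made up the 5. The median difference of the 24 members was 0.18 on the log2 scale, with 20 positive and 4 negative, beside a median of 0.00 over all genes tested. In sorted populations of this kind, fewer cells expressing a gene and less RNA per cell cannot be told apart.

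Gabra2, an alpha subunit found in many forebrain synapses, stood at 8.34, 8.50 and 8.40 in E14.5 red cells, against 7.45, 6.63 and 6.68 in E14.5 green cells. Every red array was above every green one, and green replicate 1 was the highest of the green arrays. The difference was 2.82-fold (log2 difference 1.5 ± 0.20 SE, adjusted p 0.000715). Gabrg3, a gamma subunit, stood at 6.38, 5.87 and 5.74 in red cells, against 5.31, 5.17 and 5.17 in green cells. The groups did not overlap, and red replicate 1 was the highest. Gabrg3 was 1.71-fold higher in red cells (log2 difference 0.78 ± 0.18 SE, adjusted p 0.0235). It no longer passed without red replicate 1 (0.58, adjusted p 0.123), red replicate 2 (adjusted p 0.0573), green replicate 2 (adjusted p 0.11) or green replicate 3 (adjusted p 0.112).

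The 10 other GABA-A and GABA-rho subunits tested did not pass at E14.5, and their differences ran from -0.34 for Gabra4 to 0.45 for Gabrb1, a beta subunit. Gabrb1 stood at 6.86, 6.89 and 6.97 in red cells, against 6.64, 6.32 and 6.43 in green cells, without overlap (adjusted p 0.614). Its 95% interval ran from -0.12 to 1.02, and it passed without the narrow-range arrays (adjusted p 0.0206) and with the E14.5 arrays fitted alone (adjusted p 0.0271). Gabra3, Gabra5 and Gabrg1 differed by 0.18, 0.30 and 0.17, and Gabrb2 by -0.04.

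Gabbr2, the signalling subunit of the GABA-B receptor, had the smallest p of the members at E14.5. It stood at 7.87, 7.99 and 7.98 in red cells, against 6.89, 6.39 and 6.52 in green cells. The groups were separated by nearly 1 log2 unit at their closest, and the difference was 2.55-fold (1.35 ± 0.17 SE, adjusted p 0.000489). Gabbr1, the GABA-binding subunit, stood at 9.70, 9.69 and 9.68 in red cells, against 9.28, 9.08 and 9.11 in green cells. Its difference was 1.45-fold (0.54 ± 0.11 SE, adjusted p 0.0165). Of the 6 fits that each left out 1 E14.5 array, Gabbr1 passed only in the one without green replicate 1, and its adjusted p was at most 0.0976, without green replicate 2.

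Glycine receptor genes had no member past the threshold at E14.5. Glra2, the alpha subunit typical of embryonic brain, stood at 8.82, 8.74 and 8.99 in red cells, against 8.07, 7.26 and 7.54 in green cells. The groups did not overlap, and the difference of 2.35-fold (1.23 ± 0.32 SE) lay just outside the threshold at an adjusted p of 0.0514. Glra2 passed after quantile normalisation (adjusted p 0.00702), with a replicate block (0.00157), without the narrow-range arrays (0.000582), with the E14.5 arrays fitted alone (0.00524) and without green replicate 1 (0.0384). Glra3 and Glrb differed by 0.32 and 0.31, and Gphn, the scaffold gephyrin, by 0.10, with a 95% interval from -0.25 to 0.44. The GABA transporter Slc6a11, typical of astrocytes, and the neuronal glycine transporter Slc6a5 differed by 0.29 and 0.15 without passing.

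Slc12a5 stood at 6.71, 6.45 and 6.39 in E14.5 red cells, against 5.80, 5.34 and 5.67 in E14.5 green cells. All red arrays lay above all green ones, and the exporter was 1.88-fold higher in red cells (0.91 ± 0.15 SE, adjusted p 0.00342). The importer Slc12a2 stood at 7.06, 7.27 and 7.40 in red cells, against 7.27, 7.15 and 6.87 in green cells. These groups overlapped, and the difference of 0.14 (95% interval -0.38 to 0.67) did not pass.

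**Figure D1:**
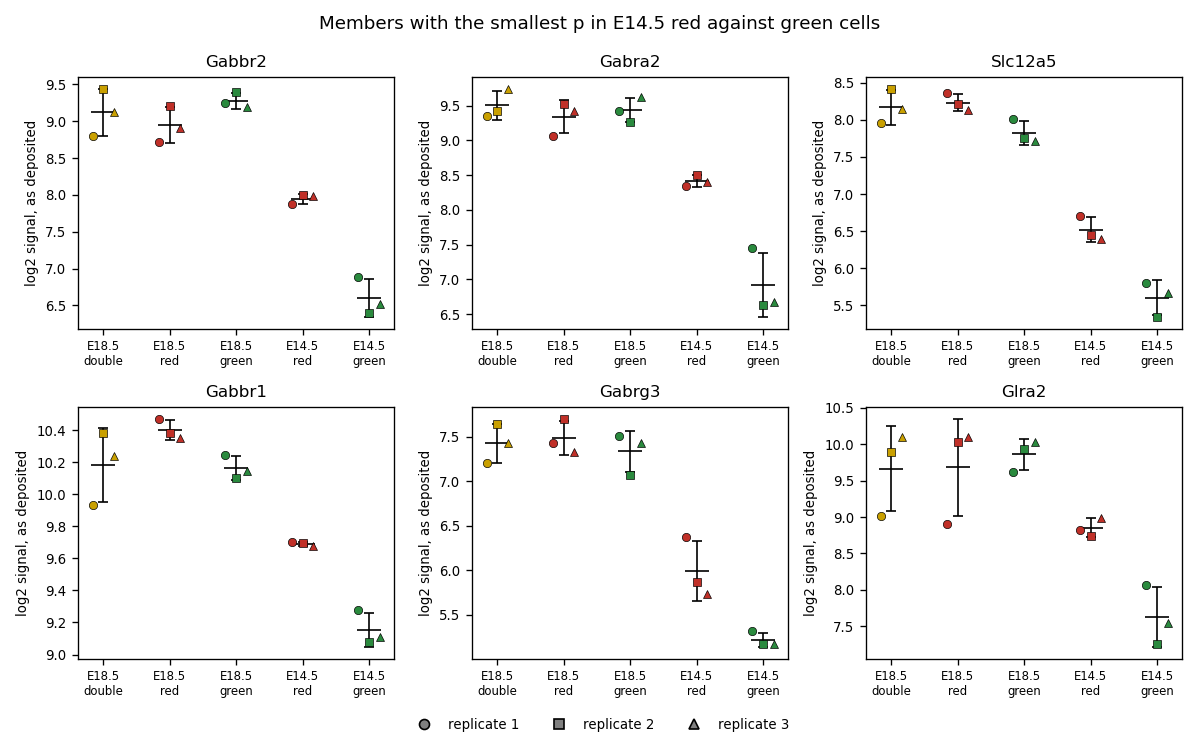
Deposited log2 signal of the 6 members with the smallest p between E14.5 red and green cells, by array. Points are arrays, with shape giving the replicate number, horizontal lines are group means and bars are ± 1 SD (n = 3). In each panel the 3 E14.5 red arrays lie above the 3 E14.5 green arrays, and the E18.5 groups, which lie higher on the deposited scale as a whole, are closer together.

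Several marker genes moved with the same contrast, and their part in these results was not tested. Of all genes tested, 1.89% were called higher and 1.64% lower in E14.5 red cells. Of 10 progenitor markers tested, 3 were lower in E14.5 red cells, the dividing-cell genes Top2a (-1.89) and Mki67 (-1.17) and the intermediate filament Nes (-0.54). Over the whole progenitor list the summed signal was 11.17 to 11.23 in red arrays, against 11.30 to 11.36 in green arrays (log2 of the sum). Of 10 neuronal markers, the vesicle protein Syt1 (0.92) and the neurofilaments Nefl (1.26) and Nefm (1.12) were higher, with sums of 13.11 to 13.20 in red and 12.73 to 12.89 in green arrays. Of 14 markers of GABAergic and prethalamic neurons, Gad2 (0.82) and Meis2 (0.81) were higher, with sums of 9.61 to 9.88 in red and 9.45 to 9.51 in green arrays. The vesicular GABA transporter Slc32a1, of the same list, was at 4.94 to 5.07 in red and 4.86 to 4.90 in green arrays and was not called. Hbb-y, an embryonic globin and the 1 erythroid marker tested, was higher in red cells by 1.46, and the erythroid sums were 6.57 to 7.37 in red and 5.78 to 5.89 in green arrays. Among 12 thalamic markers Rora (1.06) was higher and Lhx2 (-1.03) and Lhx9 (-0.89) were lower, with sums of 12.79 to 12.92 in red and 12.98 to 13.08 in green arrays. Among 11 markers of astrocytes and radial glia Slc1a3 (1.01) was higher and Slc1a2 (-0.79) lower, with sums of 10.44 to 10.79 in red and 10.96 to 11.12 in green arrays.

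Whether the red-green difference itself changed with stage was tested by an interaction term, which compares the E18.5 difference with the E14.5 difference and is not touched by a constant shift of all arrays of a stage. Gabbr2 and Gabra2 passed, both lower, which is 8.33% of the 24 members. Of all genes tested, 1.05% were called and 0.505% were called lower. The members' median was -0.55, with 20 of 24 negative, beside a median of -0.01 over all genes. The interaction shares its E14.5 arrays with the comparison above, so it is no separate evidence for the same genes.

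For Gabbr2 the red minus green difference was -0.34 at E18.5 and 1.35 at E14.5, a change of -1.68 ± 0.24 SE (adjusted p 0.0032). At E18.5 it stood at 8.80, 9.44 and 9.13 in double-labelled, 8.72, 9.20 and 8.91 in red and 9.24, 9.40 and 9.19 in green cells. The 3 populations overlapped at E18.5, whereas red and green did not overlap at E14.5. Gabra2 differed by -0.09 at E18.5 and 1.5 at E14.5, a change of -1.59 ± 0.28 SE (adjusted p 0.0128). Its E18.5 levels were 9.35, 9.42 and 9.75 in double-labelled, 9.07, 9.52 and 9.43 in red and 9.42, 9.27 and 9.62 in green cells. The Gabra2 interaction no longer passed without E14.5 green replicate 3 (-1.47, adjusted p 0.0525). Glra2, Gabrb1, Gabrg3 and Slc12a5 had changes of -1.41, -1.05, -0.63 and -0.51 that did not pass, at adjusted p of 0.225, 0.31, 0.405 and 0.481. For Glra2 the E18.5 levels were 9.01, 9.89 and 10.10 in double-labelled, 8.91, 10.03 and 10.10 in red and 9.62, 9.94 and 10.03 in green cells. For Gabrg3 they were 7.20, 7.64 and 7.43 in double-labelled, 7.43, 7.70 and 7.33 in red and 7.51, 7.08 and 7.43 in green cells, so that both genes overlapped between colours at E18.5. Without the narrow-range arrays 4 members passed, Gabbr2 and Gabra2 with Gabrb1 (-0.83, adjusted p 0.0157) and Gabrg1 (-0.76, adjusted p 0.0222). In that fit 2.92% of all genes were called and 1.77% were called lower. With all arrays in the fit, where 1.05% of all genes were called, 2 of 10 progenitor markers passed in the interaction. These were Top2a (2.05) and Mki67 (1.61), both higher. Prox1 (-1.88) of 12 thalamic markers and Hbb-y (-1.36), the 1 erythroid marker tested, also passed. The part of these markers in the result was not tested.

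**Figure D2:**
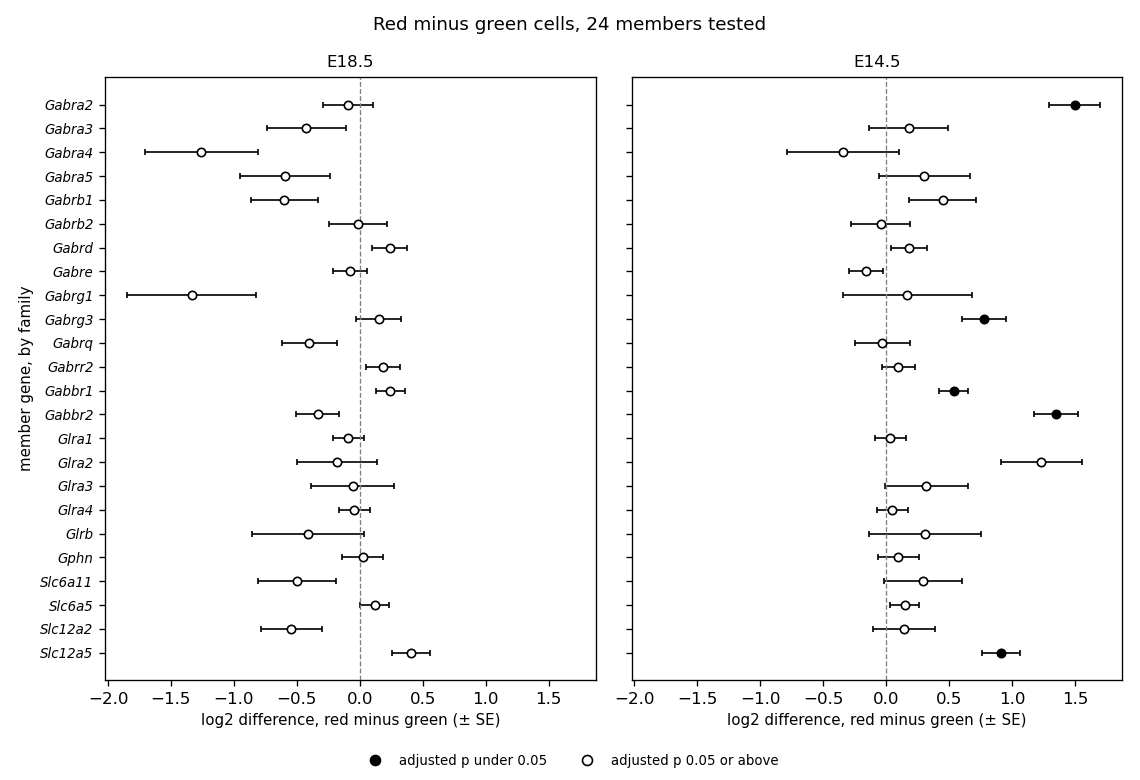
Red minus green log2 difference of the 24 members tested, at E18.5 (left) and at E14.5 (right), on deposited values. Points are differences, bars are ± 1 SE from the model, and filled points passed an adjusted p of 0.05. Filled points occur at E14.5 for Gabra2, Gabrg3, Gabbr1, Gabbr2 and Slc12a5, and none at E18.5.

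Among the E18.5 populations no member passed by limma with all arrays in the fit. In red against green cells 0 of 24 passed, where 0.613% of all genes tested were called. There limma's unadjusted p was under 0.05 for 5 members and for 1666 of all 16635 genes. In double-labelled against green cells 0 passed, where 0.0361% of all genes were called. An unadjusted p under 0.05 was reached there by 2 members and by 949 of all genes. In double-labelled against red cells 0 passed, where 0.0902% of all genes were called. Here 1 member and 752 of all genes had an unadjusted p under 0.05. The 3 comparisons share their arrays pair by pair, so the values for a member are given side by side.

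Gabrg1, a gamma subunit whose receptors respond weakly to benzodiazepines, varied most at E18.5. It stood at 7.84, 9.63 and 9.44 in double-labelled, 6.16, 8.40 and 8.37 in red and 8.84, 9.11 and 8.99 in green cells. In both double-labelled and red cells the low value was that of the narrow-range array, while the green arrays lay close together. The red-green difference was -1.33 ± 0.51 SE (adjusted p 0.404), and the double-labelled minus red difference was 1.33 ± 0.51 SE (adjusted p 0.93). Without the narrow-range arrays, Gabrg1 passed as lower in red than in green cells (-0.59 ± 0.12 SE, adjusted p 0.026) and as higher in double-labelled than in red cells (1.15 ± 0.13 SE, adjusted p 0.00186). In that fit it was 0.56 higher in double-labelled than in green cells without passing (adjusted p 0.109). Leaving out red replicate 1 alone gave -0.59 in red against green cells with an adjusted p of 0.944.

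Double-labelled and red arrays at E18.5 were also set in pairs by replicate number, a pairing that the labels do not state. Within the 3 pairs Gabrg1 was higher in double-labelled cells by 1.68, 1.23 and 1.07, and Slc6a11 by 0.53, 0.52 and 0.61. With the replicate number as a block neither passed (adjusted p 0.163 for Gabrg1 and 0.482 for Slc6a11). Of the 24 members 5 had 1 sign in all pairs, which is 20.8%, beside 24.8% of all genes tested.

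Gabra4, an alpha subunit of extrasynaptic receptors in adult thalamic relay neurons, stood at 6.78, 7.54 and 7.83 in double-labelled, 5.89, 7.90 and 7.88 in red and 8.32, 8.64 and 8.48 in green cells. All green arrays lay above all others, and the narrow-range arrays were again the lowest. The red-green difference of -1.26 (95% interval -2.22 to -0.30, adjusted p 0.352) became -0.59 without the narrow-range arrays (adjusted p 0.357). Against green cells, double-labelled cells differed by -1.10 (adjusted p 0.84), and by -0.79 without these arrays. Gabrb1 stood at 6.93, 8.12 and 8.06 in double-labelled, 7.02, 7.55 and 7.80 in red and 8.12, 8.18 and 7.88 in green cells. Its red-green difference was -0.60 (adjusted p 0.477), and -0.38 without the narrow-range arrays (adjusted p 0.204).

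Slc12a5 stood at 7.95, 8.42 and 8.15 in double-labelled, 8.36, 8.22 and 8.13 in red and 8.01, 7.75 and 7.72 in green cells. Red arrays lay above green arrays, and the difference of 0.41 (95% interval 0.08 to 0.74) did not pass (adjusted p 0.388). Slc12a2 stood at 7.09, 7.91 and 7.80 in double-labelled, 6.94, 7.83 and 7.92 in red and 8.17, 8.13 and 8.02 in green cells. Green arrays were the highest for the importer, which differed by -0.54 in red against green cells (adjusted p 0.483). The narrow-range arrays were the lowest for Slc12a2 at E18.5. Gabbr1 stood at 9.93, 10.38 and 10.24 in double-labelled, 10.47, 10.39 and 10.35 in red and 10.24, 10.10 and 10.14 in green cells, a red-green difference of 0.24 (adjusted p 0.508). The 18 remaining members had red-green differences between -0.59 for Gabra5 and 0.24 for Gabrd, a delta subunit.

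The low replicates recurred in other receptor genes. Glrb, the beta subunit that links glycine receptors to gephyrin, stood at 6.02, 7.82 and 7.73 in double-labelled, 6.04, 7.79 and 7.49 in red and 7.33, 7.75 and 7.49 in green cells. Replicate 1 of the double-labelled and of the red cells lay more than 1 log2 unit below its group mates. Slc6a11 stood at 6.75, 7.94 and 7.78 in double-labelled, 6.22, 7.42 and 7.17 in red and 7.32, 7.74 and 7.24 in green cells. Replicate 1 was again the lowest in double-labelled and red cells and not in green cells. Gabra3 stood at 8.10, 9.56 and 9.49 in double-labelled, 8.70, 9.11 and 9.52 in red and 9.44, 9.65 and 9.51 in green cells.

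Among the less common subunits, Gabrq stood at 5.35, 6.54 and 6.14 in double-labelled, 5.70, 5.47 and 5.88 in red and 6.05, 6.27 and 5.95 in green cells. Gabre stood at 6.13, 5.83 and 5.85 in double-labelled, 5.64, 5.78 and 5.92 in red and 5.85, 5.91 and 5.81 in green cells. Gabrr2 stood at 6.03, 5.51 and 5.58 in double-labelled, 5.87, 5.78 and 5.51 in red and 5.58, 5.45 and 5.58 in green cells. Double-labelled cells overlapped both other populations for Gabrq, Gabre and Gabrr2, and replicate 1 was the highest double-labelled array for Gabre and Gabrr2 and the lowest for Gabrq.

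**Figure D3:**
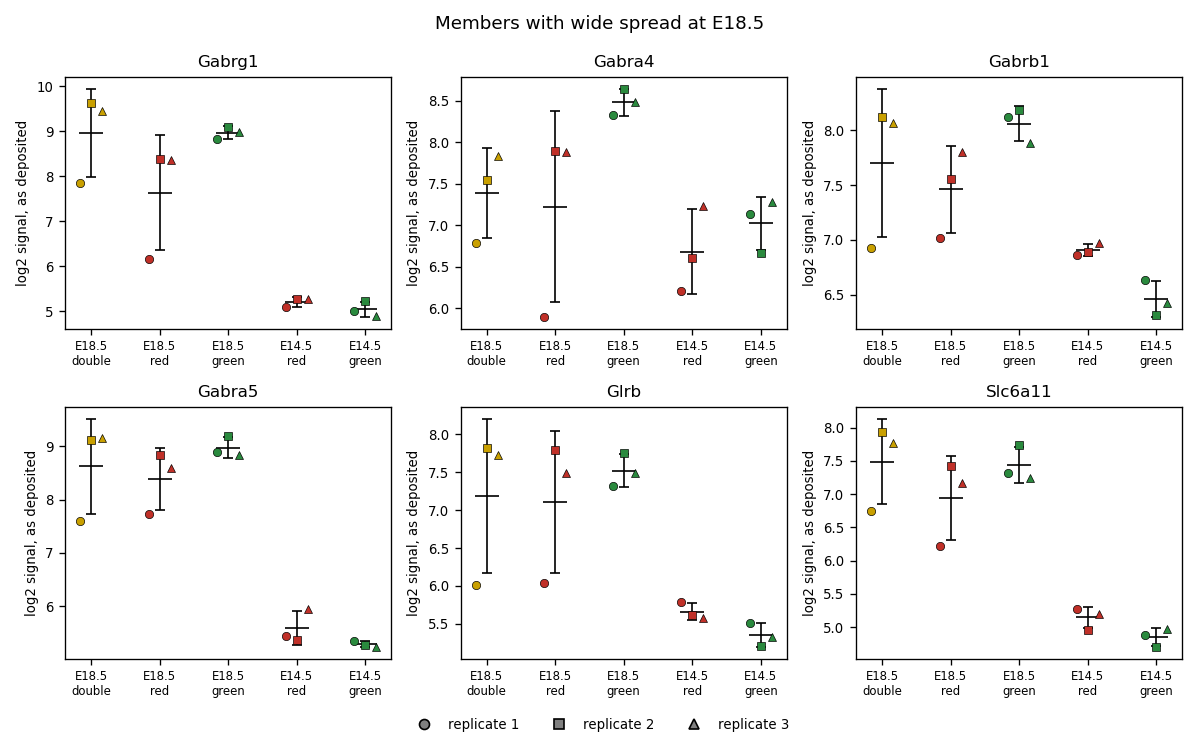
Deposited log2 signal by array for the 6 members Gabrg1, Gabra4, Gabrb1, Gabra5, Glrb and Slc6a11, which spread widely at E18.5. Points are arrays, with shape giving the replicate number, lines are group means and bars are ± 1 SD (n = 3). Replicate 1 (circles) is the lowest E18.5 double-labelled and the lowest E18.5 red array in all 6 panels.

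E18.5 and E14.5 arrays lay at different overall levels as deposited, with means over all values of 6.17 to 6.19 and 5.63 to 5.65. The median gene shifted by 0.60 in red and 0.61 in green cells, so stages were compared after quantile normalisation of the 15 arrays. Stage, the day of tamoxifen and any batch of the arrays cannot be told apart. In red cells 8 members were higher at E18.5 and 1 was lower, 37.5% of the 24, where 27.5% of all genes were called, 12.8% higher and 14.7% lower. In green cells 13 members were higher and 0 lower, 54.2% of the 24, where 33.9% of all genes were called and 15.7% were called higher. The members' median difference was 0.14 in red and 0.70 in green cells, beside -0.03 in both over all genes.

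Of the calls, 8 genes passed in both colours, Slc6a5 in red alone and 5 genes in green alone (Gabra2, Gabrb1, Gabbr1, Glra2 and Glrb). Passing in 1 colour does not by itself show a difference between colours, and of these 6 genes the interaction test called Gabra2. Without normalisation 19 of the 24 members passed in red and 24 in green cells, all higher, where 72.4% and 73.5% of all genes were called. With each array centred on its median 6 passed in red and 13 in green cells, all higher, where 23.2% and 33.1% of all genes were called. Without the narrow-range arrays 11 were higher and 2 lower in red cells, and 16 were higher and 2 lower in green cells, where 39.5% and 48% of all genes were called.

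Gabra5, an alpha subunit prominent in the embryonic forebrain, had quantile-normalised values of 7.69, 8.56 and 8.32 in E18.5 red cells, against 5.82, 5.73 and 6.33 in E14.5 red cells. In green cells they were 8.61, 8.80 and 8.52 at E18.5, against 5.76, 5.68 and 5.66 at E14.5. The stages were apart by more than 1 log2 unit in either colour, and Gabra5 was 4.68-fold higher in red (2.23 ± 0.28 SE, adjusted p 8.26e-05) and 7.70-fold higher in green cells at E18.5 (2.94 ± 0.28 SE, adjusted p 3.48e-06). Gabrg1 had 5.80, 8.12 and 8.08 in E18.5 red cells, against 5.44, 5.62 and 5.68 in E14.5 red cells. In green cells it had 8.55, 8.71 and 8.67 at E18.5, against 5.41, 5.64 and 5.28 at E14.5. It was 9.20-fold higher at E18.5 in green cells (3.20 ± 0.48 SE, adjusted p 0.000188), the largest stage difference of any member on the quantile-normalised scale. At E14.5 its deposited means were 5.04 in green and 5.21 in red cells, near the low-signal cutoff of 5.07. Those of Gabra5 were 5.29 and 5.59, so the folds of both genes rest on low E14.5 signals. In red cells Gabrg1 was 3.37-fold higher (1.75 ± 0.48 SE, adjusted p 0.0157), and the log2 difference was 2.52 without the narrow-range arrays (adjusted p 1.46e-08). The red call was lost without E18.5 red replicate 2 (adjusted p 0.0662), E18.5 red replicate 3 (0.0694) or E14.5 red replicate 1 (0.0523), and with the red arrays fitted alone (0.0817).

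Gabra2 rose in green cells and did not pass in red cells, a difference between colours that the interaction test called. Its quantile-normalised values were 9.16, 9.23 and 9.15 in E18.5 red cells, against 8.73, 8.95 and 8.72 in E14.5 red cells, and the difference of 0.38 did not pass (adjusted p 0.159). In green cells they were 9.12, 8.86 and 9.30 at E18.5, against 7.79, 7.01 and 7.04 at E14.5, a 3.52-fold rise (1.82 ± 0.19 SE, adjusted p 9.16e-06). Gabra3, an alpha subunit, had 8.76, 8.82 and 9.25 in E18.5 red cells against 7.95, 7.82 and 8.28 in E14.5 red cells. It had 9.15, 9.23 and 9.18 in E18.5 green cells against 7.92, 7.78 and 7.65 in E14.5 green cells. Gabra3 was thus higher at E18.5 by 0.93 in red (adjusted p 0.00754, and 0.0526 with arrays centred on their median) and 1.40 in green cells (adjusted p 0.000288).

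Gabrg3 had 7.35, 7.44 and 7.03 in E18.5 red cells against 6.78, 6.28 and 6.12 in E14.5 red cells, after quantile normalisation. In green cells it had 7.22, 6.76 and 7.13 at E18.5 against 5.72, 5.58 and 5.59 at E14.5. It rose by 0.88 in red (adjusted p 0.00162) and 1.41 in green cells (adjusted p 2.41e-05). Gabrb2, a beta subunit common in mature thalamic receptors, had 7.77, 8.28 and 8.24 in E18.5 red cells against 7.11, 7.58 and 7.34 in E14.5 red cells. Its green values were 8.01, 7.92 and 7.98 at E18.5 against 7.35, 7.33 and 7.34 at E14.5. Gabrb2 rose by 0.76 in red (adjusted p 0.0039) and by 0.63 in green cells (adjusted p 0.00887). Gabrb1 rose in green cells by 0.89 (adjusted p 0.00595) and differed by -0.08 in red cells (95% interval -0.54 to 0.39). It had 7.83, 7.80 and 7.57 in E18.5 green against 7.01, 6.72 and 6.80 in E14.5 green cells, and 6.86, 7.30 and 7.52 in E18.5 red against 7.27, 7.35 and 7.30 in E14.5 red cells. The narrow-range array, at 6.86, was the lowest of the red arrays.

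The remaining GABA-A and GABA-rho members did not pass between stages after quantile normalisation with all arrays in the fit. Gabra4 differed by -0.16 in red and 0.77 in green cells, with 95% intervals of -1.11 to 0.79 and -0.19 to 1.72. Its quantile-normalised red values were 5.52, 7.62 and 7.59 at E18.5, against 6.61, 7.05 and 7.55 at E14.5. The narrow-range array was the lowest of these, and the other E18.5 red arrays lay above all E14.5 red arrays. The green difference of Gabra4 passed without the narrow-range arrays (adjusted p 0.00632) and with the green arrays fitted alone (0.00195). Gabrd differed by -0.29 in either colour after quantile normalisation (adjusted p 0.0771 in red and 0.0658 in green cells), and by 0.40 in red and 0.35 in green cells as deposited. Gabrd passed as lower at E18.5 in red cells without the narrow-range arrays (adjusted p 0.0425) or E14.5 red replicate 3 (0.026), and in green cells without the narrow-range arrays (0.0221) or with the green arrays fitted alone (0.0114). Gabre and Gabrq, the epsilon and theta subunits, and Gabrr2, a rho subunit best known from retina, differed by between -0.20 and 0.20, and Gabre and Gabrr2 turned from lower to higher in both colours on the deposited scale. Gabra6, known from cerebellar granule cells, and Gabrr1 had deposited group means of 4.39 to 4.77 and 4.51 to 5.17 over the 5 groups and were not tested.

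Gabbr2 had quantile-normalised values of 8.78, 8.90 and 8.63 in E18.5 red cells, against 8.26, 8.46 and 8.30 in E14.5 red cells. In green cells it had 8.94, 8.98 and 8.87 at E18.5, against 7.25, 6.79 and 6.89 at E14.5. The green rise of 3.88-fold (1.95 ± 0.12 SE, adjusted p 9.65e-08) had the smallest p of any member between stages, while the red rise was 1.35-fold (0.43 ± 0.12 SE, adjusted p 0.0198). The red call was lost without E18.5 red replicate 2 (adjusted p 0.0718), E14.5 red replicate 1 (0.0716) or E14.5 red replicate 3 (0.0606), and with arrays centred on their median (0.137). Gabbr1 had 9.96, 9.72 and 9.82 in E18.5 green cells against 9.55, 9.35 and 9.40 in E14.5 green cells, and 10.60, 10.16 and 10.06 in E18.5 red against 10.06, 10.13 and 10.01 in E14.5 red cells. It rose by 0.40 in green cells (adjusted p 0.0246) and differed by 0.21 in red cells without passing. The green call was lost without E18.5 green replicates 1 (adjusted p 0.0971) or 3 (0.0589), and without E14.5 green replicates 2 (0.0891) or 3 (0.0713).

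Of the 6 glycine receptor genes, Glra2 and Glrb rose in green cells and none passed in red cells. Glra2 had quantile-normalised values of 9.34, 9.55 and 9.71 in E18.5 green cells, against 8.40, 7.60 and 7.87 in E14.5 green cells (1.57 ± 0.24 SE, adjusted p 0.000203). Its red values were 8.99, 9.79 and 9.81 at E18.5, against 9.21, 9.20 and 9.31 at E14.5, with a difference of 0.29 that was 0.56 without the narrow-range arrays (adjusted p 0.0258 in that fit). Glrb had 7.03, 7.40 and 7.19 in E18.5 green cells against 5.93, 5.61 and 5.76 in E14.5 green cells (1.44 ± 0.46 SE, adjusted p 0.0268). In red cells it had 5.67, 7.53 and 7.21 at E18.5 against 6.18, 5.99 and 5.99 at E14.5, where the narrow-range array was the lowest of all 6. The Glrb difference in red cells was 0.75 (adjusted p 0.248), and 1.32 without the narrow-range arrays (adjusted p 9.96e-06). Although the green groups did not overlap, Glrb kept its green call in 1 of the 6 fits that left out an array, that without E18.5 green replicate 1, with an adjusted p of at most 0.0817. Glra1, the alpha subunit of adult spinal cord, Glra3, Glra4 and gephyrin differed by between -0.08 and 0.39 over both colours. Glra3 passed as higher without the narrow-range arrays in red (0.44, adjusted p 0.0471) and green cells (0.39, adjusted p 0.0426), and with the green arrays fitted alone (0.0497).

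Slc6a11 had quantile-normalised values of 5.87, 7.16 and 6.88 in E18.5 red cells against 5.64, 5.29 and 5.61 in E14.5 red cells. In green cells it had 7.03, 7.39 and 6.94 at E18.5 against 5.27, 5.04 and 5.37 at E14.5. This transporter rose 2.17-fold in red (adjusted p 0.0129) and 3.71-fold in green cells (adjusted p 0.000264). Its deposited E14.5 means were 5.15 in red and 4.85 in green cells, near the low-signal cutoff of 5.07. The red log2 difference of 1.12 was 1.5 without the narrow-range arrays, and the red call was lost without E18.5 red replicate 2 (adjusted p 0.056) or E14.5 red replicate 2 (0.0533), and with the red arrays fitted alone (0.0523). Of 11 astrocyte and radial glia markers, Aldoc, Fabp7 and Gja1 were higher and Slc1a2 and Slc1a3 lower at E18.5 in red cells, and Aldoc and Glul were higher and Slc1a2 and Fabp7 lower in green cells. The summed astrocyte list stood at 11.49 to 11.63 in E18.5 red and 11.34 to 11.67 in E18.5 green arrays, against 10.44 to 10.79 in E14.5 red and 10.96 to 11.12 in E14.5 green arrays, on the deposited scale. These sums hold the overall shift between stages, 0.60 in red and 0.61 in green cells for the median gene. After quantile normalisation the list median was 0.28 in red and 0.11 in green cells, beside -0.03 over all genes in both. Of all genes tested, 12.8% were called higher and 14.7% lower in red cells, and 15.7% higher and 18.1% lower in green cells. The part of these markers in the Slc6a11 result was not tested.

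Slc6a5, which takes up glycine at inhibitory terminals, was the 1 member called lower at E18.5 with all arrays in the fit. The mean deposited signal of Slc6a5 was 5.23, near the cutoff of 5.07 under which genes were not tested. Its quantile-normalised values were 5.11, 5.22 and 5.09 in E18.5 red cells, against 5.44, 5.58 and 5.35 in E14.5 red cells (-0.32 ± 0.09 SE, adjusted p 0.0164). The sign turned on the deposited scale, with a difference of 0.32 (adjusted p 0.0239). The call was also lost without E18.5 red replicate 3 (adjusted p 0.0522) or E14.5 red replicate 2 (0.0737), with arrays centred on their median (0.0789) and with the red arrays fitted alone (0.0857). In green cells Slc6a5 differed by -0.23 without passing, and passed without the narrow-range arrays (adjusted p 0.0325), with the green arrays fitted alone (0.0278) and with no filter on low values (0.0321).

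Slc12a5 had quantile-normalised values of 8.38, 7.94 and 7.82 in E18.5 red cells, against 7.12, 6.90 and 6.75 in E14.5 red cells. In green cells it had 7.72, 7.40 and 7.41 at E18.5, against 6.21, 5.76 and 6.10 at E14.5. The exporter was 2.18-fold higher at E18.5 in red (1.12 ± 0.16 SE, adjusted p 0.000262) and 2.80-fold higher in green cells (1.49 ± 0.16 SE, adjusted p 1.31e-05). Slc12a2 had 6.75, 7.56 and 7.63 in E18.5 red cells against 7.47, 7.74 and 7.71 in E14.5 red cells, and 7.88, 7.75 and 7.71 in E18.5 green against 7.62, 7.50 and 7.22 in E14.5 green cells. The importer did not pass in red (-0.33, adjusted p 0.255) or green cells (0.33, adjusted p 0.238). For Slc12a2 the narrow-range array, at 6.75, was the lowest of the red arrays. The green difference passed as higher without the narrow-range arrays (adjusted p 0.0237) and with the green arrays fitted alone (0.035). Progenitor markers moved with stage as well, 7 of 10 lower at E18.5 in green cells with a median of -0.82, and 3 lower and 1 higher in red cells. Of all genes tested, 18.1% were called lower and 15.7% higher in green cells, and 14.7% lower and 12.8% higher in red cells. Of 10 neuronal markers, 5 were higher in red and 3 in green cells, and 0 lower. Of 14 GABAergic and prethalamic markers, 7 were lower and 1 higher in red cells, and 4 lower and 2 higher in green cells. The part of these markers in the results was not tested.

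**Figure D4:**
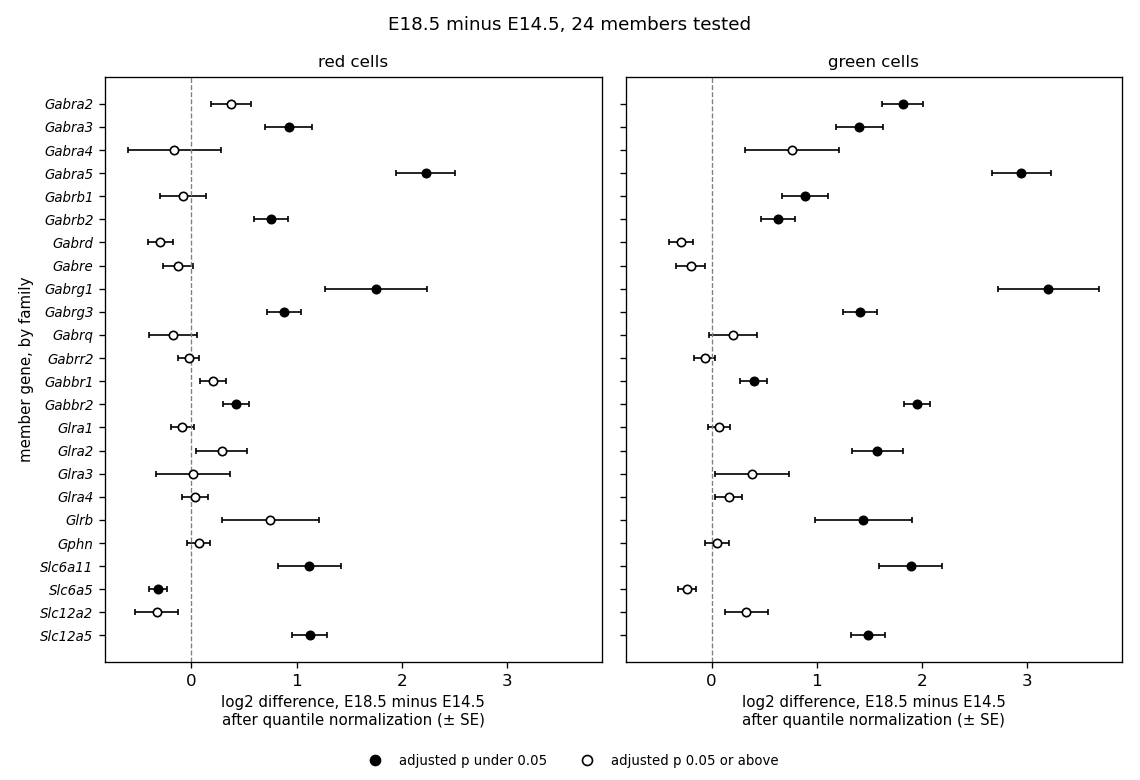
E18.5 minus E14.5 log2 difference of the 24 members tested, in red (left) and green cells (right), after quantile normalisation. Points are differences, bars are ± 1 SE from the model, and filled points passed an adjusted p of 0.05. Gabra5 and Gabrg1 lie farthest to the right in both panels, and Gabra2 and Gabbr2 lie nearer 0 in red than in green cells.

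Within an array, the log2 difference of Slc12a5 minus Slc12a2 does not depend on that array's overall level. It was compared between groups only, since the probes of different genes respond differently. The difference was 0.86, 0.51 and 0.34 in E18.5 double-labelled, 1.41, 0.38 and 0.21 in E18.5 red and -0.16, -0.38 and -0.31 in E18.5 green cells. At E14.5 it was -0.35, -0.81 and -1.01 in red cells, against -1.47, -1.81 and -1.20 in green cells. Every E18.5 double-labelled and red array thus lay above every E18.5 green array, and the E14.5 green arrays were the lowest.

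Red exceeded green cells by 0.95 at E18.5 and by 0.77 at E14.5 in this difference. Double-labelled exceeded green cells by 0.85 and differed from red cells by -0.10. E18.5 exceeded E14.5 by 1.39 in red and 1.21 in green cells. The exact two-sided permutation p was 0.1 for each of these comparisons other than that of double-labelled with red cells (0.9), and 0.1 is the smallest that 3 arrays against 3 can give. Without the narrow-range arrays, a setting chosen after the values were seen, the E18.5 red-green difference was 0.58 and the red stage difference 1.02.

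**Figure D5:**
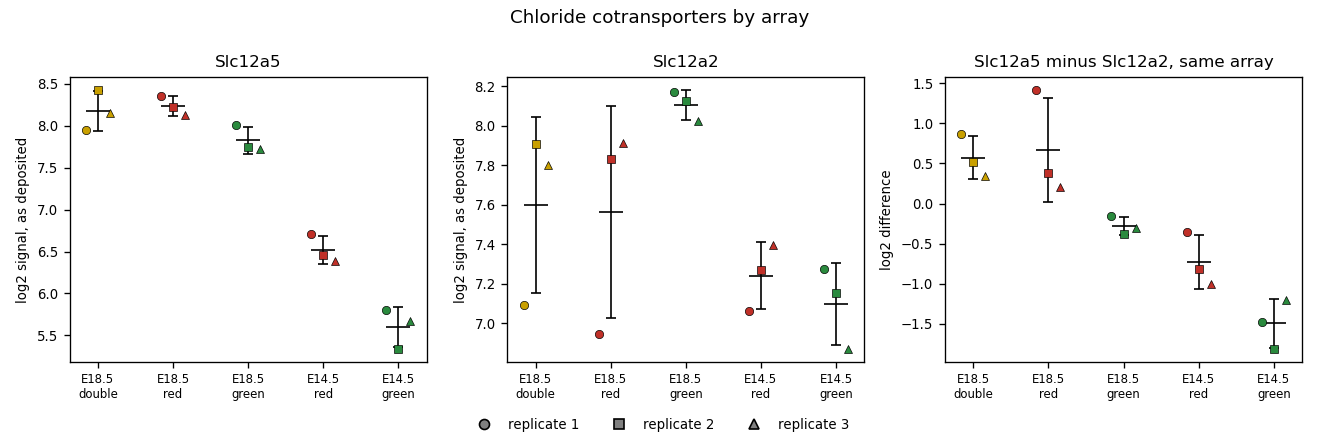
Deposited log2 signal of Slc12a5 (left) and Slc12a2 (middle) and their difference within each array (right). Points are arrays, with shape giving the replicate number, lines are group means and bars are ± 1 SD (n = 3). In the right panel the E18.5 double-labelled and red arrays lie above those of the other 3 groups, and the E14.5 green arrays are lowest. Its zero has no meaning, since the signals come from different probes.

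Several members are neighbours in the genome, which the choice of members did not use. By RefSeq on GRCm38.p6, Gabrg1, Gabra2, Gabra4 and Gabrb1 follow each other on chromosome 5, Gabrg3 and Gabra5 on chromosome 7, and Gabre, Gabra3 and Gabrq on the X chromosome. In the chromosome 5 group the E14.5 red minus green differences were 0.17 for Gabrg1, 1.5 for Gabra2, -0.34 for Gabra4 and 0.45 for Gabrb1. Between stages in green cells they differed by 3.20, 1.82, 0.77 and 0.89. Differences between neighbours were not tested. The starts of Gabra4 and Gabrb1 overlap on opposite strands, and whether the array separates their transcripts there was not tested. Gabrg3 and Gabra5 both rose with stage in both colours, and at E14.5 they differed between colours by 0.78 and 0.30 (adjusted p 0.909 for Gabra5). On the X chromosome Gabra3 rose with stage in both colours. Gabre and Gabrq did not pass in any comparison with all arrays in the fit and stages compared after quantile normalisation. On the deposited scale, which holds the overall shift, Gabre passed between stages in both colours and Gabrq in green cells.

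Other genes of inhibitory transmission were counted from further lists. Of 7 genes of GABA synthesis, breakdown and loading tested, Gad2, which makes GABA, was higher in E14.5 red than in green cells (0.82, adjusted p 0.0136). Of 22 genes listed under inhibitory synapse scaffold, assembly and trafficking, 2 were higher, the neurexin Nrxn3 (1.43) and Shisa9 (1.66). Shisa9 is an AMPA receptor auxiliary protein, so its call is not that of an inhibitory scaffold gene. Of 9 partners and effectors of the GABA-B receptor, 2 were higher, the potassium channel subunit Kcnj6 (1.06) and the auxiliary subunit Kctd12 (1.53). Of 18 genes of chloride and bicarbonate handling 1 was lower, Stk39 (-0.61), a kinase that activates Slc12a2, where 1.64% of all genes tested were called lower and 1.89% higher. Of 9 genes of glycine synthesis and breakdown 2 were lower, Gldc (-1.26) and Psat1 (-0.95). The medians of these lists were 0.11, 0.15, 0.10, 0.09 and -0.23, beside 0.00 over all genes.

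Between stages, 5 of the 9 GABA-B partners and effectors in red cells were higher at E18.5 and 0 lower, among them Ajap1 (1.46), Kctd16 (1.23), Kcnj3 (0.79) and Kcnj9 (0.66). In green cells 6 of 9 were higher and 0 lower, among them Kctd12 (3.08), Kcnj3 (0.80), Kcnj6 (1.23) and Kctd16 (1.0). Of the 22 scaffold and trafficking genes, 8 were higher and 3 lower in red cells, and 11 were higher and 2 lower in green cells, with the adhesion proteins Slitrk3 (1.26 in red, 1.31 in green), Mdga2 (1.16 and 1.40) and the receptor partner Lhfpl4 (0.47 and 0.64) among those higher in both. Of the 18 chloride and bicarbonate genes, 4 were higher and 2 lower in each colour, a share near that of all genes, and Clcn3 (1.15 in red, 1.20 in green) and Slc4a10 (1.43 and 2.03) were higher in both. Of the 9 glycine metabolism genes, 4 were lower in green cells, with Gldc at -1.58, and in red cells Psat1 (0.61) was higher and Gldc (-0.53) lower. Of all genes tested, 12.8% were called higher and 14.7% lower in red cells, and 15.7% higher and 18.1% lower in green cells. The list medians were 0.66 in red and 0.64 in green cells for the GABA-B partners, 0.14 and 0.44 for the scaffold genes, -0.07 and -0.02 for the chloride genes and -0.16 and -0.22 for the glycine genes, beside -0.03 over all genes in both colours. At E18.5 2 of the 22 scaffold genes differed between red and green cells, Insyn2a (-0.67) and Mdga1 (-0.56), both lower in red. There 0.349% of all genes were called lower and 0.265% higher. No other pathway list had a call among the E18.5 populations. The interaction called Insyn2a (-1.01) of the 22 scaffold genes, and Psat1 (1.05) and Gldc (1.12) of the 9 glycine genes. It called 0.505% of all genes lower and 0.547% higher.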

How the data were processed

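Sorted thalamic cells of 5 groups were profiled on 15 arrays, 3 per group. Per the labels' protocols, cDNA came from 10 ng of RNA with a Nugen Ovation Pico WTA kit. The submitters' processing notes name Affymetrix Expression Console, with version and algorithm not given in the sources used here. The values deposited by the authors are log2 signals per transcript cluster, and their scale could leave each stage normalized apart, since the 9 E18.5 and the 6 E14.5 arrays differ in overall level. Array signals have no read depth, so the number of arrays limits the precision.

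Of 33794 transcript clusters, 23521 named 1 gene, 1814 several and 8459 none, and the last 2 kinds were not used. Gene names were those of the platform annotation, and 21994 of 22180 genes matched RefSeq (GRCm38.p6) by Entrez identifier with 0 symbols changed. The row with the highest mean was taken per gene, and the lowest 25% by mean (cutoff 5.07) were not tested. limma 3.58.1 (R 4.3.3) fitted group means over the 15 arrays, with moderated two-sided tests and Benjamini-Hochberg adjustment over 16635 genes. Red-green, double-labelled and interaction comparisons used deposited values, and stage comparisons used quantile-normalized ones. Each SD is over 3 arrays, and each SE is the model's. Figures were drawn with matplotlib 3.10.9 (Python 3.11.15), and the fit was tested on simulated data. The labels call the replicates biological but do not say whether they came from separate litters, so p-values measure the spread between these samples.

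Arrays of the same number deviated from their group means together for E18.5 double-labelled and red cells (correlations of 0.49 to 0.67). Across numbers, double-labelled replicate 2 with red replicate 3 gave 0.43 and double-labelled 3 with red 2 gave 0.23. Every other mixed pair of these groups was negative. The labels state no pairing, so taking these arrays as pairs is an assumption. In the other comparisons at least 1 pair correlated under 0.1, though E18.5 red and green replicates 1 and 2 gave 0.46 and 0.41. The alternatives were quantile normalization, no filter, a replicate block, the compared arrays alone, and leaving out the narrow-range arrays or each array in turn. For stages they also included deposited and median-centred values.

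Members and lists were chosen with earlier results of these data known. Some genes of these families are not reported here. Values per array are given for members past the threshold in any comparison, and where fewer than 6 passed in a comparison also for those with the smallest p. Up to 4 genes per further list and comparison are named by smallest adjusted p.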

Additional observations from a re-analysis of the deposited data

Results flagged for a closer look

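The red-green difference of 2 members depended on stage by the interaction term of the limma fit. Gabbr2 was 2.55-fold higher in red than in green cells at E14.5, and its red minus green difference was -0.34 at E18.5. The difference between stages was -1.68 (adjusted p 0.0032). Gabra2 was 2.82-fold higher in red cells at E14.5, with a red minus green difference of -0.09 at E18.5 and a difference between stages of -1.59 (adjusted p 0.0128).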

How the results depend on the processing

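Of the 29 calls on single members, 19 kept their side of the threshold under every alternative run and 20 whichever array was left out. Without the narrow-range arrays 1 member was called in E18.5 red against green and 1 in double-labelled against red cells (Gabrg1 in both), 7 at E14.5, 13 and 18 between stages in red and green cells, and 4 in the interaction. The shares of all genes called in these comparisons were, in the same order, 1.28%, 0.234%, 8.62%, 39.5%, 48% and 2.92%. With the compared arrays fitted alone there were 0 in each E18.5 comparison, 7 at E14.5, 6 and 18 between stages in red and green cells and 2 in the interaction. Of all genes, 8.22% were called in that fit at E14.5, 17.9% and 50.5% between stages and 1.88% in the interaction. With arrays centred on their median there were 6 in red and 13 in green cells, where 23.2% and 33.1% of all genes were called. On deposited values 19 members were called between stages in red and 24 in green cells, where 72.4% and 73.5% of all genes were called. There all 9 members lower in red cells and all 4 lower in green cells turned to higher, by the construction of that scale, which holds the overall shift. Among them Gabrd (0.40 in red, 0.35 in green), Slc6a5 (0.32 and 0.35), Gabre and Gabrr2 were called in both colours and Glra1 in red cells. Leaving out 1 array gave 3 to 6 calls at E14.5, 6 to 10 between stages in red and 11 to 12 in green cells, 1 to 2 in the interaction, and 0 in each E18.5 comparison. Of all genes these fits called 1.48% to 3.17% at E14.5 and 0.457% to 1.29% in the interaction. Between stages they called 20.5% to 29% of all genes in red and 25.9% to 28.1% in green cells. The fewest member calls at E14.5, 3, came without red replicate 1, red replicate 2, green replicate 2 or green replicate 3, and the 1 in the interaction without E14.5 green replicate 3. With a replicate block the calls were 0 in each E18.5 comparison, 6 at E14.5, 9 and 13 between stages in red and green cells and 3 in the interaction, so the block moved no count of members by over 1.5 times, and Glra2 was the call added at E14.5 and in the interaction. Over all genes the block gave 234 calls against 102 in E18.5 red against green and 12 against 6 in double-labelled against green cells. It gave 32 against 15 in double-labelled against red cells and 343 against 175 in the interaction. At E14.5 the block called 5.06% of all genes, and between stages 29.3% in red and 35.9% in green cells. The Slc12a5 minus Slc12a2 difference ranged, with 1 array left out, over 0.58 to 1.18 for red against green, 0.71 to 0.97 for double-labelled against green and -0.33 to 0.28 for double-labelled against red cells at E18.5. It ranged over 0.58 to 0.92 for red against green cells at E14.5, and over 1.02 to 1.62 in red and 1.06 to 1.36 in green cells between stages. With each member on 1 row, no other transcript cluster could be tried.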
